A study of Mus musculus with 9 samples.

Results

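The nuclear genes of the mitochondrial respiratory chain and ATP synthase were followed in Gr-1+ cells of the mouse spleen on day 7 after bone marrow transplantation. Members were all probes whose gene symbol in the platform annotation begins with Ndufa, Ndufb, Ndufc, Ndufs or Ndufv, with Cox4 to Cox8, with Atp5 or with Uqcr, or is Sdha, Sdhb, Sdhc, Sdhd or Cycs, without pseudogenes. This gave 137 of 45281 probes, for 87 of the 19057 genes named on the array. Of the 87 genes, 76 had a probe above the background limit on at least 3 of the 9 arrays and were tested, and 72 exceeded it on all 9. The limit, a signal of 14.3, was the 95th percentile of 1619 probes for sensory receptors and keratin-associated proteins.

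There were 3 groups of 3 Illumina arrays. KO cells came from allogeneic hosts without IDO, of the strain given as B6.129-Ido1tm1Alm/J (IDO KO). WT cells came from allogeneic C57BL/6 (B6) hosts, and syngeneic cells from C57BL/6 (B6) hosts of a syngeneic transplant without graft-versus-host disease. All 3 groups had received a transplant, and all were sampled on the same day. The labels name the strain, but not the age or sex of the mice, the strain of the donors, or whether the sorted cells stem from donor or host. The deletion is labelled for the host, and IDO1, the enzyme that starts tryptophan breakdown, was to be tested for the pathways it regulates in myeloid cells. Cells were pulled with magnetic beads as Gr-1+ (Ly6G+) at a purity above 97%. The labels do not tell whether arrays of 1 group hold separate animals, so p-values here measure the spread of the arrays alone, and that spread may be technical. The 3 KO arrays lay on 1 chip and the WT and syngeneic arrays on the other, so that chip and genotype cannot be told apart in either comparison with KO.

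Oxidative phosphorylation runs in the inner mitochondrial membrane. Complex I takes electrons from NADH and complex II from succinate, coenzyme Q passes them to complex III, cytochrome c carries them to complex IV, and complex IV hands them to oxygen. Complexes I, III and IV pump protons, and complex V, the ATP synthase, lets the protons back to make ATP. A few core subunits are encoded by mitochondrial DNA and all others, the members here, by the nucleus. Mature neutrophils, the main Gr-1+ cells, are known for few mitochondria and for drawing ATP mostly from glycolysis, while their dividing precursors depend more on respiration.

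Values below are the deposited signal intensities, or differences on the log2 scale with their standard error (SE, n = 3 arrays per group) from limma, after a background correction that adds an offset of 50 and so narrows differences of dim probes. A gene was called, and is said to have risen or fallen, where the p-value adjusted by Benjamini-Hochberg over the 10872 genes tested was under 0.05. In bulk RNA, fewer cells of a type and less RNA per cell cannot be told apart.

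Some facts of the arrays bear on all members. Ido1 itself was dim, with signals of -2.27, 0.648 and -8.10 on the KO arrays, 24.6, 33.8 and 19.99 on the WT arrays and 7.63, 3.87 and 13.3 on the syngeneic arrays, above the limit on the 3 WT arrays alone. Its probe passed the filter on low values through those WT arrays, so no test of it is given. Whether its probe lies in the deleted part of the gene is not known here. Of 12 markers of mature neutrophils 10 were on the array, each above the limit on at least 1 array, and their summed signal was 180579.6 to 180878 in KO cells and 175807 to 180109 in syngeneic cells. In WT cells it was 171655 and 164233 on replicates 1 and 3 and 57414 on replicate 2. WT replicate 2 stood apart, with a mean correlation of 0.919 with the other WT arrays, against 0.993 to 0.995 in KO and 0.998 in syngeneic cells. Its T cell markers (9 on the array, with Cd5 and Cd8a below the limit throughout) summed to 38216, against 6837 and 7048 on the other WT arrays. Its erythroid markers (9 on the array, Epb42 below the limit) summed to 65242, against 10269 and 9382. The 3 B cell and 4 NK cell markers on the array (Pax5 and Ncr1 below the limit) also summed highest on it, at 1537 and 1051. For the members, however, KO replicate 1 was the array that differed most from its group, as given below. Counts of members and of related gene lists are therefore also given without WT replicate 2, without KO replicate 1 and without both, the last chosen once the values were known.

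Promoters of 4 members are printed because, as described below, Ndufs3, Sdhb and Cycs rose in both comparisons with syngeneic cells and Atp5o passed in both comparisons that involve WT cells. Sequences are from RefSeq on GRCm38.p6, 150 bases before to 30 after the start of transcription, 5′ to 3′ on the strand of the gene. Capitals mark the letters of an ETS core (CCGGAAG or CTTCCGG), an NRF1 core (TGCGCA), a YY1 core (AAGATGG or CCATCTT) or a CCAAT box (CCAAT or ATTGG), searched on both strands. ETS and YY1 cores can share the letters AAG. The stretches lie at chr16:91931601-91931780 on the minus strand (Atp5o), chr2:90904692-90904871 on the minus strand (Ndufs3), chr4:140961121-140961300 on the plus strand (Sdhb) and chr6:50566540-50566719 on the minus strand (Cycs).
Atp5o: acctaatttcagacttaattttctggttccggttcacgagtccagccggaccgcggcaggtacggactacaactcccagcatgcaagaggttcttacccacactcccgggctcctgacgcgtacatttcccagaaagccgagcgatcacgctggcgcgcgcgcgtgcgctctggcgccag
Ndufs3: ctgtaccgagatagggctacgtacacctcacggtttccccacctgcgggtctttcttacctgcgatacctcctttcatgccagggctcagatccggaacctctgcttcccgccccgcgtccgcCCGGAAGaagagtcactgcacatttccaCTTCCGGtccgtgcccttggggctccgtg
Sdhb: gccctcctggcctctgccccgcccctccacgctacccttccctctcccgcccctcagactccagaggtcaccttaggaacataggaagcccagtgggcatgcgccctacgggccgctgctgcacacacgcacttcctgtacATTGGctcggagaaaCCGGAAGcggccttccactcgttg
Cycs: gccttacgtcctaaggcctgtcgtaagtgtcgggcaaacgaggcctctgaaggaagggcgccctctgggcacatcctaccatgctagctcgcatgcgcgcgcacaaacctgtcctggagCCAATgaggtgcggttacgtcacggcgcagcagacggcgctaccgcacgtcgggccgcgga
Ndufs3 holds 2 ETS cores and Sdhb an ETS core and a CCAAT box, Cycs holds a CCAAT box, and Atp5o holds none of these letters in its window. In the same window of the other called members, Atp5k holds an ETS core and Cox6b2 CCAAT boxes, and Atp5d, Ndufaf5, Ndufaf7 and Ndufb5 hold none of these letters. ETS factors such as GABP and the factor NRF1 are known regulators of respiratory chain genes.

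Of the members, 73 had promoters of 300 bases in the table, and a gene was counted where any of its promoters held the letters. An ETS core stood in 18 members (24.7%), in 9.93% of the 27025 genes of the table and in 19.3% of the 8858 of them tested on the array. The NRF1 core stood in 18 members (24.7%), in 8.79% of all genes and in 14.98% of those tested. The YY1 core stood in 11 members (15.1%), in 7.28% of all genes and in 8.60% of those tested. The CCAAT box was about as common in members (33, or 45.2%) as in all genes (41.1%) and in those tested (42.7%). These are matches of letters, not sites shown to be bound.

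As a whole, the members stood highest on the WT arrays. Relative to the mean of the syngeneic arrays, the median of the 76 tested members was 0.19, -0.07 and -0.10 on KO replicates 1, 2 and 3, and 0.22, 0.30 and 0.22 on the WT arrays (log2). It was 0.02, 0.01 and -0.03 on the syngeneic arrays themselves. The median of all genes tested was at most 0.04 on every array. WT arrays thus lay above both other groups in this median, and KO replicate 1 came close to them while KO replicates 2 and 3 lay below the syngeneic arrays.

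**Figure D1:**
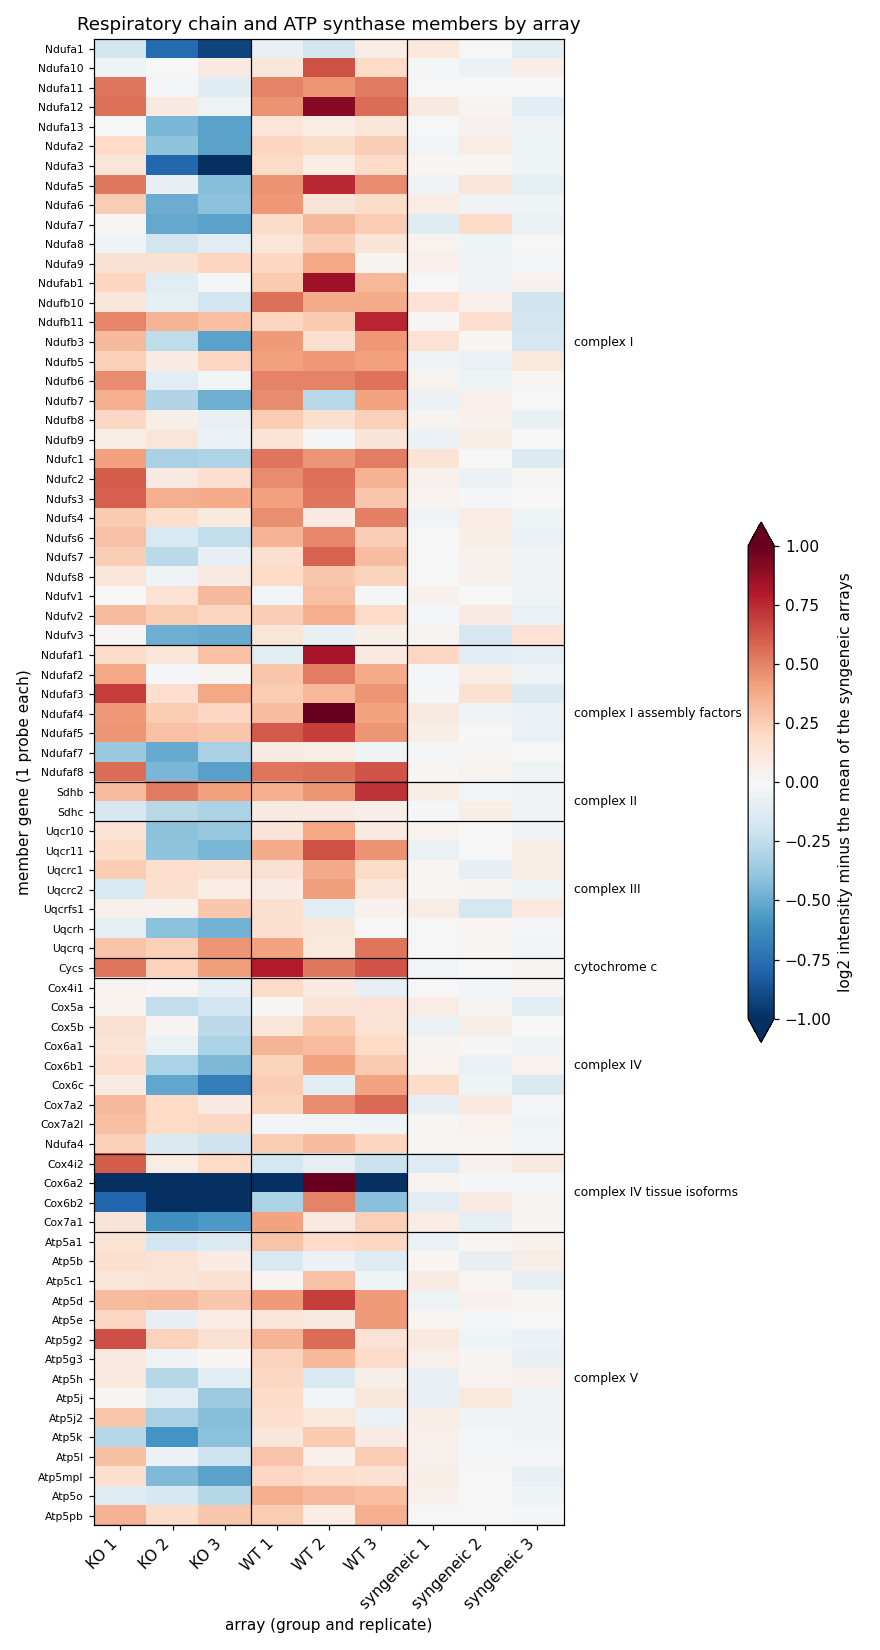
Level of each of the 76 tested members (rows, grouped by complex) on each of the 9 arrays (columns), as log2 intensity minus the mean of the 3 syngeneic arrays, with the colour scale ending at -1 and 1. Most rows are red on the WT arrays, and KO replicate 1 is redder than KO replicates 2 and 3.

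**Figure D2:**
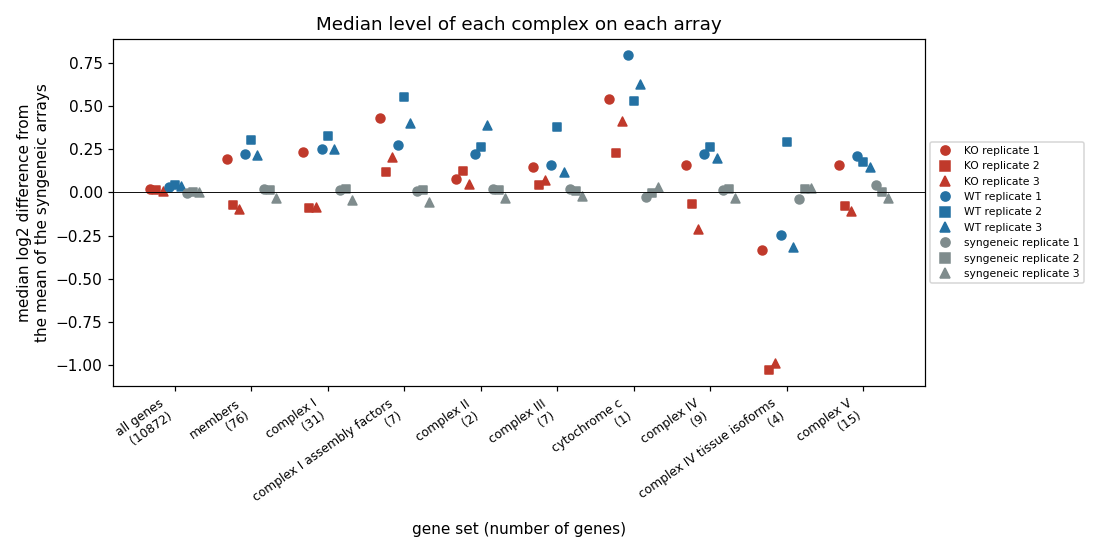
Median log2 difference from the mean of the syngeneic arrays over all genes, over the tested members and over each group of members, with 1 point per array (colour for the group, shape for the replicate). The median of the 31 complex I subunits was 0.23, -0.09 and -0.08 on the KO arrays and 0.25, 0.33 and 0.25 on the WT arrays.

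The comparison of KO with WT asked how these cells differ between allogeneic hosts that lack IDO and those that have it. ATP synthase subunits Atp5o and Atp5k and the complex I assembly factor Ndufaf7 fell in KO cells, and no member rose. These 3 are 3.95% of the tested members, where 0.828% of all genes fell and 1.18% rose (2.01% either way). At an unadjusted p under 0.05 there were 39 members lower and 3 higher in KO cells by limma, in all 55.3% of members against 18.9% of all genes. The difference was negative for 66 of the 76 (86.8%, against 53.3% of all genes), with a median of -0.26 over members and -0.02 over all genes. All 3 KO arrays lay below all 3 WT arrays for 22 members (28.9%, against 12.6% of all genes) and above them for 3 (3.95%, against 10.8%).

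The count of calls turned on single arrays. Without KO replicate 1, 25 members fell and 0 rose (2.05% and 1.33% of all genes), and 3 members were higher at an unadjusted p under 0.05. Without WT replicate 2, 17 fell and 4 rose (9.78% and 10.2% of all genes). Without both, 47 fell and 5 rose (16.2% and 15.8% of all genes). Leaving out any 1 of the other 7 arrays left 0 members called by limma, with 16 to 35 at an unadjusted p under 0.05. The median difference stayed negative when any 1 array was left out, between -0.33 and -0.22, and was -0.35 without both.

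Among complex V subunits, Atp5o had signals of 11309.8, 11084 and 10132 on the KO arrays, 15839.8, 15483 and 15276 on the WT arrays and 12743, 12401 and 11995 on the syngeneic arrays. Atp5o encodes OSCP, which ties the catalytic head of ATP synthase to its stator stalk. On this probe, the brightest of the gene, the 3 KO arrays were the lowest, the 3 WT arrays the highest, and no 2 groups overlapped. The difference between KO and WT was -0.52 ± 0.07 (limma adjusted p = 0.0203). A dimmer passing probe had 703, 459 and 491 in KO cells and 736, 700 and 827 in WT cells. It had 468, 427 and 481 in syngeneic cells, and KO arrays there overlapped both other groups. Atp5k encodes subunit e of the membrane part, which takes part in joining synthases into dimers. Its signal was 22.1, 5.14 and 15.1 in KO cells, close to the limit, against 50.9, 63.3 and 47.96 in WT cells and 45.9, 40.5 and 39.5 in syngeneic cells. KO arrays lay below all others, 1 of them below the limit, and Atp5k fell by 0.58 ± 0.10 relative to WT on the log2 scale (adjusted p = 0.0303).

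Not all of complex V lay on that side. Atp5b, the catalytic beta subunit, had 38714, 38407 and 36639.5 in KO cells and 31143, 33246 and 31679 in WT cells. Every KO array was above every WT array, yet the difference of 0.24 ± 0.07 did not pass (adjusted p = 0.139). Of the 15 complex V members, 2 fell and 0 rose, 12 had a negative difference, and the median was -0.21. For Atp5o the adjusted p ranged from 0.00123 to 0.0894 when 1 array at a time was left out, for Atp5k from 0.00284 to 0.126 and for Ndufaf7 from 0.00492 to 0.134. The differences themselves stayed negative, with the values nearest to 0 being -0.47, -0.50 and -0.39.

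In complex I, 29 of 31 tested subunits had a negative difference between KO and WT, with a median of -0.36, but 0 passed by limma and 18 had an unadjusted p under 0.05. The smallest p belonged to Ndufb10 and Ndufa7, accessory subunits that surround the catalytic core. Ndufb10 had 201, 164 and 149 in KO cells and 295, 252 and 251 in WT cells, a difference of -0.49 ± 0.12 (adjusted p = 0.0882). Ndufa7 had 6179.6, 4288 and 4203 in KO cells and 6967, 7708 and 7309 in WT cells, a difference of -0.60 ± 0.16 (adjusted p = 0.0972). For both, the groups did not overlap on these probes. A dimmer passing probe of Ndufb10 had 88.8, 42.8 and 67.5 in KO cells and 80.3, 65.8 and 54.5 in WT cells. The groups overlapped on it. Ndufs6, an accessory subunit with a bright probe, had 17421, 12743 and 11965 in KO cells and 17989.9, 19819 and 16853 in WT cells. Only KO replicate 1 reached into the WT range there, and the difference of -0.39 ± 0.14 did not pass (adjusted p = 0.198).

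Among complex I assembly factors, which help to build the complex but do not stay in it, Ndufaf7 fell. This methyltransferase, known in human cells to modify a core subunit during assembly, had signals of 661, 597 and 684 on the KO arrays, 929.7, 920.2 and 851 on the WT arrays and 863, 880.4 and 875 on the syngeneic arrays. KO arrays lay below all 6 others, while WT and syngeneic arrays overlapped. The difference between KO and WT was -0.44 ± 0.08 (adjusted p = 0.034). Ndufaf8, which works with Ndufaf5 in human cells, had 1431, 671 and 629 in KO cells and 1402, 1423 and 1499 in WT cells, so that replicate 1 lay in the WT range and the other KO arrays far below it. Its difference of -0.72 ± 0.26 did not pass (adjusted p = 0.189), and without KO replicate 1 it fell by 1.07 ± 0.08 on the log2 scale (adjusted p = 0.00556).

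In complex II, Sdhc, a membrane anchor, had 3099, 2850.3 and 2775 in KO cells and 3693, 3663 and 3619.5 in WT cells. KO lay below WT on every array, with a difference of -0.33 ± 0.07 that did not pass (adjusted p = 0.0714, and 0.0499 without KO replicate 1). Sdhb, the iron-sulphur subunit, overlapped between the groups. In complex III, Uqcr11 and Uqcrh, small subunits of which Uqcrh is the hinge protein that binds cytochrome c1, showed KO arrays below all WT arrays. Uqcr11 had 9178, 6112 and 5865 in KO cells and 10484, 12622 and 11046 in WT cells, a difference of -0.71 ± 0.17 (adjusted p = 0.0752). Uqcrh had 15517, 12401 and 11913 in KO cells and 18564, 17919 and 16524 in WT cells, a difference of -0.42 ± 0.11 (adjusted p = 0.0959). Neither passed, and none of the 7 complex III members did by limma, with 3 at an unadjusted p under 0.05. Without KO replicate 1 the adjusted p was 0.0115 for Uqcr11 and 0.026 for Uqcrh. Uqcr10, another small subunit, had 20060.1, 13621 and 13947 in KO cells and 19819, 23754 and 19338 in WT cells, and its groups overlapped through KO replicate 1.

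Complex IV, outside its tissue isoforms, had 0 of 9 members called by limma, 6 at an unadjusted p under 0.05 and a median of -0.23. Cox6b1, the common form of subunit 6b, had 27458, 19449 and 17757 in KO cells and 28362, 32156 and 29104 in WT cells, a difference of -0.49 ± 0.15 (adjusted p = 0.143). Cox7a2l, which joins complexes III and IV in supercomplexes, went the other way, with 6693, 6243 and 6285 in KO cells against 5307, 5325 and 5262 in WT cells. All KO arrays were above all WT arrays, and the difference of 0.27 ± 0.07 did not pass (adjusted p = 0.0911, and 0.0282 without WT replicate 2). Cytochrome c (Cycs) had 4999.7, 4017 and 4581 in KO cells and 5988, 4970.2 and 5316 in WT cells, where only KO replicate 1 and WT replicate 2 overlapped. Ndufa4, once counted with complex I and now known as a complex IV subunit, had 15757, 12069 and 11502 in KO cells and 15928, 16612 and 15447 in WT cells (difference -0.30 ± 0.12, adjusted p = 0.229).

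**Figure D3:**
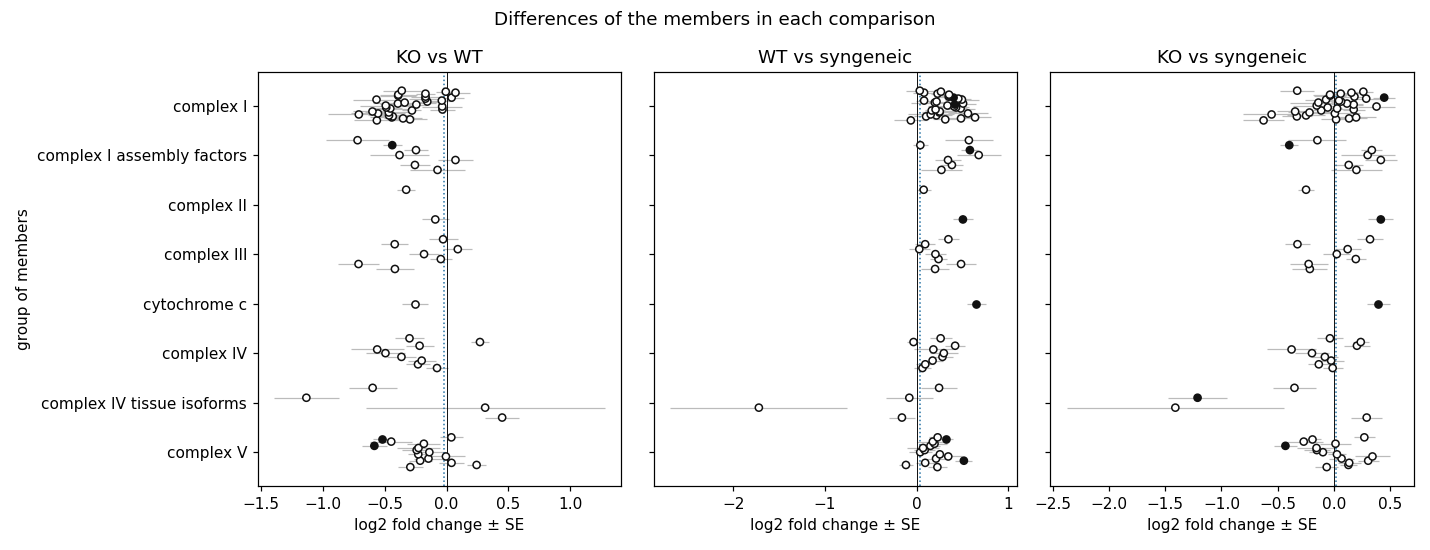
Log2 fold change with its SE for each tested member (points, grouped by complex) in KO vs WT, WT vs syngeneic and KO vs syngeneic, filled where the adjusted p was under 0.05, with the median of all genes as a dotted line. Filled points number 3, 7 and 6, and most points lie below 0 in KO vs WT and above 0 in WT vs syngeneic.

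Markers of other cells differed between the same arrays. The 10 monocyte and macrophage markers on the array, all above the limit on at least 1 array, summed to 18309.6 to 22886 in KO cells, 3187 to 9929 in WT cells and 71655 to 73884 in syngeneic cells, and 4 of the 10 rose in KO vs WT. Erythroid markers summed to 1117 to 8963 in KO cells, 9382 to 65242 in WT cells and 62199.9 to 63632 in syngeneic cells. The 4 primary granule markers of promyelocytes summed to 96009 to 119960.1 in KO cells, 106530.02 to 109424 in WT cells and 93300.2 to 96442 in syngeneic cells. The 9 proliferation genes summed to 32158 to 35756 in KO cells, 36932 to 45064 in WT cells and 33359 to 34613 in syngeneic cells. The sum of the proliferation genes was higher on every WT array than on any other, and was lowest on KO replicate 1, at 32158. Against the syngeneic mean, their log2 median was 0.04, 0.20 and 0.27 on KO arrays and 0.11, 0.30 and 0.10 on WT arrays. The sum of the primary granule markers was highest on KO replicate 1 and next on the 3 WT arrays. The part of any of these cells in the members' differences was not tested.

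WT against syngeneic compared allogeneic with syngeneic hosts that both carry IDO, within 1 chip. Complex I subunits Ndufs3 and Ndufb5, the assembly factor Ndufaf5, complex II subunit Sdhb, cytochrome c and ATP synthase subunits Atp5d and Atp5o rose in WT cells, and no member fell. These 7 are 9.21% of the tested members, where 4.8% of all genes rose and 5.64% fell (10.4% either way). At an unadjusted p under 0.05, limma gave 33 members higher and 0 lower, 43.4% of members against 27.1% of all genes. The difference was positive for 70 of 76 members (92.1%, against 56.8% of all genes), with a median of 0.24 over members and 0.04 over all genes. All 3 WT arrays lay above all 3 syngeneic arrays for 53 members (69.7%, against 21.9% of all genes) and below them for 0 (16.6% of all genes). The WT arrays are the same as in the comparison with KO, so these comparisons are not independent. On the same arrays 9 of the 10 monocyte and macrophage markers fell and 0 rose in WT vs syngeneic, with the sums given above, and their part in the members' differences was not tested.

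Cycs had 5988, 4970.2 and 5316 in WT cells against 3363, 3406 and 3493 in syngeneic cells. The lowest WT array was well above the highest syngeneic array, and Cycs rose by 0.65 ± 0.11 (adjusted p = 0.00665). Ndufaf5, which in human cells hydroxylates a core subunit of complex I during assembly, had 483, 515 and 421 in WT cells against 308, 295 and 277 in syngeneic cells and rose by 0.58 ± 0.09 (adjusted p = 0.00646). Cycs and Ndufaf5 kept their calls in all 21 alternative settings tried. Ndufaf4, another assembly factor, had 1121, 2325 and 1199 in WT cells against 949.9, 869 and 855 in syngeneic cells, with WT replicate 2 far above the other WT arrays, and did not pass (adjusted p = 0.117). Atp5d, the delta subunit of the rotating central stalk, had 3931, 4741 and 3927 in WT cells against 2797, 2987 and 2931 in syngeneic cells. No array overlapped, and it rose by 0.52 ± 0.09 (adjusted p = 0.0105).

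Sdhb, whose iron-sulphur clusters pass electrons from succinate to coenzyme Q, had 856, 913 and 1119.6 in WT cells against 684, 640.3 and 638 in syngeneic cells. On this probe, the brightest of the gene, it rose by 0.51 ± 0.11 (adjusted p = 0.0238) with no overlap. Another passing probe had 469, 597 and 555 in WT cells against 518, 620 and 401 in syngeneic cells, which overlapped. Its KO arrays, at 683, 615 and 705, lay above every WT array. The other tested complex II subunit, Sdhc, with 3693, 3663 and 3619.5 in WT cells against 3416, 3605 and 3373 in syngeneic cells, differed by 0.08 ± 0.07 (adjusted p = 0.535). Ndufs3, a core subunit in the arm of complex I that reaches into the matrix, had 2036, 2238 and 1843 in WT cells against 1551, 1496 and 1513 in syngeneic cells and rose by 0.40 ± 0.10 (adjusted p = 0.0406). Ndufb5, an accessory subunit of the membrane arm, had the low signals of 105, 108 and 105 in WT cells against 59.4, 56.9 and 72.3 in syngeneic cells. It rose by 0.42 ± 0.08 (adjusted p = 0.0148). Atp5o, given above, rose by 0.33 ± 0.07 (adjusted p = 0.03).

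By complex, the median difference between WT and syngeneic cells was 0.31 for the 31 complex I subunits (2 rose), 0.39 for the 7 assembly factors (1 rose) and 0.21 for the 7 complex III subunits (0 rose by limma, 3 at an unadjusted p under 0.05). It was 0.18 for the 9 complex IV subunits (0 rose, 2 at an unadjusted p under 0.05) and 0.20 for the 15 complex V subunits (2 rose). WT lay above syngeneic on every array for 24 of 31 complex I, 5 of 7 complex III, 5 of 9 complex IV and 10 of 15 complex V members. In complex III, Uqcr11, with 10484, 12622 and 11046 in WT cells against 7732, 8064 and 8475 in syngeneic cells, differed by 0.49 ± 0.17 (adjusted p = 0.109). In complex IV, Cox7a2, the form of subunit 7a found in most tissues, had 53.04, 76.1 and 85.1 in WT cells against 30.4, 43.1 and 34.98 in syngeneic cells, and its difference of 0.42 ± 0.11 did not pass (adjusted p = 0.0515). Cox4i1, the common form of subunit 4, overlapped between all 3 groups.

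These counts also turned on single arrays. Without WT replicate 2, 19 members rose and 1 fell, Cox6a2 (14.6% and 14.9% of all genes). Without KO replicate 1, which enters only through the shared estimate of spread, 16 rose and 0 fell (4.85% and 5.22% of all genes), with 0 lower at an unadjusted p under 0.05. Without both, 44 rose and 2 fell (20.6% and 18.0% of all genes). When 1 array at a time was left out, the highest adjusted p was 0.0563 for Atp5d, 0.0742 for Ndufb5, 0.0979 for Sdhb, 0.129 for Atp5o and 0.137 for Ndufs3, and each of these calls was lost without syngeneic replicate 1. The median stayed between 0.22 and 0.26 in these fits.

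**Figure D4:**
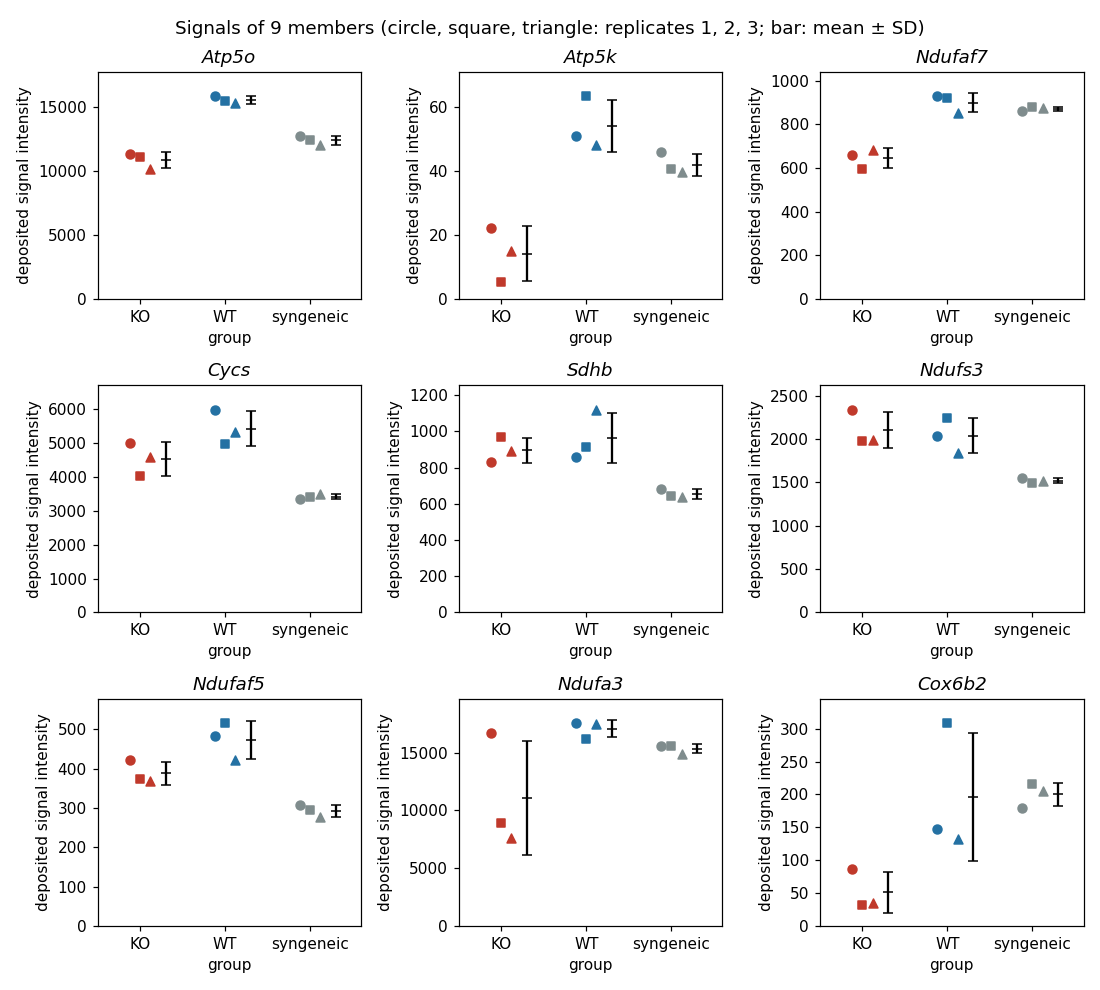
Deposited signal intensity of 9 members in KO, WT and syngeneic cells, with 1 symbol per array and the mean ± SD of 3 arrays beside it, each axis starting at 0. Atp5o, Atp5k and Ndufaf7 lie lowest in KO cells, Cycs, Sdhb, Ndufs3 and Ndufaf5 lie lowest in syngeneic cells, and KO replicate 1 stands off for Ndufa3.

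KO against syngeneic shares its arrays with both comparisons above. Ndufs3, Sdhb and Cycs rose and Ndufaf7, Atp5k and Cox6b2 fell in KO cells, in all 7.89% of the tested members, where 11.9% of all genes changed (5.09% rose and 6.85% fell). The median was 0.01 over members and 0.02 over all genes (-0.09 over members without KO replicate 1), and 39 of 76 differences were positive (51.3%, against 52.8% of all genes). At an unadjusted p under 0.05, limma gave 11 members higher and 8 lower, where 25.8% of all genes passed either way. KO lay above syngeneic on every array for 19 members (25%, against 24.9% of all genes) and below for 9 (11.8%, against 24.4%). The differences were 0.45 ± 0.10 for Ndufs3, 0.42 ± 0.11 for Sdhb and 0.39 ± 0.11 for Cycs, with adjusted p = 0.0246, 0.0452 and 0.0474. Without KO replicate 1 none of these 3 passed (adjusted p = 0.0657, 0.0625 and 0.125). Ndufaf7 fell by 0.40 ± 0.08 (adjusted p = 0.0137) and Atp5k fell by 0.43 ± 0.10 (adjusted p = 0.0267) on the log2 scale. Each of the 6 calls was lost without any 1 of the 3 syngeneic arrays, with adjusted p of up to 0.152, for Cycs. Of the 10 monocyte and macrophage markers, 7 fell and 0 rose in KO vs syngeneic (4 fell without KO replicate 1), and their part in these differences was not tested. Ndufa1, a small subunit of the membrane arm, had 6508, 4334 and 3878 in KO cells and 7974, 7425 and 6896 in syngeneic cells, and its difference of -0.63 ± 0.18 did not pass (adjusted p = 0.0623).

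Side by side, the called members took different orders over the groups. Sdhb and Ndufs3 rose in KO and in WT cells relative to syngeneic cells and did not pass between KO and WT, where the difference was -0.09 ± 0.11 for Sdhb and 0.04 ± 0.10 for Ndufs3. Cycs, Ndufaf5, Atp5d and Ndufb5 lay highest in WT cells, with every KO array between the WT and syngeneic means. Ndufaf7 and Atp5k were lower in KO cells than in both other groups. Atp5o alone among the called members passed in both KO vs WT and WT vs syngeneic, and its difference between KO and syngeneic cells was -0.19 ± 0.07 (adjusted p = 0.15). Without KO replicate 1, 14 members fell and 0 rose relative to syngeneic cells (5.59% and 3.59% of all genes), with 8 higher at an unadjusted p under 0.05. Without WT replicate 2, 13 rose and 8 fell (19.3% and 20.0% of all genes), and without both, 12 rose and 27 fell (22.2% and 22.1%).

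The tissue isoforms of complex IV followed other patterns. Cox6b2, the testis form of subunit 6b, had 86.96, 31.3 and 34.3 on the KO arrays, 147, 308 and 133 on the WT arrays and 180.1, 215 and 205 on the syngeneic arrays. KO arrays lay below all others, and WT replicate 2 was the highest array. Cox6b2 fell by 1.21 ± 0.26 in KO vs syngeneic on the log2 scale (adjusted p = 0.02), and its difference of -1.13 ± 0.26 from WT did not pass (adjusted p = 0.0718, and 0.00401 without WT replicate 2). Cox7a1, a muscle form, had 122, 46.2 and 49.5 on the KO arrays, 161, 117 and 137 on the WT arrays and 115, 94.3 and 109 on the syngeneic arrays. Its difference of -0.60 ± 0.19 between KO and WT did not pass (adjusted p = 0.154), with KO replicate 1 inside the WT range. Cox4i2, the form of subunit 4 that responds to low oxygen and is best known from lung, had 61.2, 21.8 and 29.8 on the KO arrays, 7.83, 12.7 and 5.86 on the WT arrays and 10.2, 20.3 and 22.8 on the syngeneic arrays. It exceeded the limit on all KO arrays, on no WT array and on 2 syngeneic arrays, so that no fold is given against WT cells. Its probe passed the filter on low values only through the KO arrays, so no test of it against WT cells is given. It remains in the counts of members.

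Cox6a2, the form of subunit 6a of heart and skeletal muscle, varied widely between the arrays. Its signal was 472, 253 and 324 on the KO arrays, 63.6, 2096 and 58.1 on the WT arrays and 1037, 1007 and 998 on the syngeneic arrays. WT replicate 2 was the highest and WT replicates 1 and 3 the lowest of all 9 arrays, with KO arrays between them and the syngeneic arrays. With all arrays no comparison passed (adjusted p = 0.886 in KO vs WT, 0.286 in WT vs syngeneic and 0.413 in KO vs syngeneic). Without WT replicate 2 the difference was 1.67 ± 0.16 in KO vs WT (adjusted p = 5.14e-05). It was then -3.08 ± 0.16 in WT vs syngeneic (adjusted p = 4.24e-08) and -1.41 ± 0.15 in KO vs syngeneic (adjusted p = 1.35e-05). The common form Cox6a1 did not share this, with 20887, 18057 and 15213 on the KO arrays, 24013, 23519 and 21722 on the WT arrays and 19338, 19088 and 18424 on the syngeneic arrays.

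Genes of plasmacytoid dendritic cells, which make type I interferon and carry Siglech at their surface, were set beside Cox6a2 as a list chosen after its values were seen. Of 12 genes, 10 were on the array, 8 were tested and Ccr9 and Cd209d stayed below the limit on every array. Siglech had 24.9, 19.5 and 24.4 on the KO arrays, 0.825, 215 and -1.001 on the WT arrays and 167, 196 and 166 on the syngeneic arrays. Ly6d had 417, 276 and 264 on the KO arrays, 114, 1509 and 141 on the WT arrays and 1346, 1442 and 1311 on the syngeneic arrays. Both were low in WT replicates 1 and 3 and high in WT replicate 2 and the syngeneic arrays, as Cox6a2 was. Of the 8 genes, 5 were below every syngeneic array on WT replicates 1 and 3 and 5 on all KO arrays, and 6 had WT replicate 2 as the highest WT array. Klk1 is in both counts of 5, but was above the limit only on the syngeneic arrays (25.4, 21.7 and 18.9) and WT replicate 2 (17.0). It passed the filter on low values through the syngeneic arrays, so its place below them carries no weight. Over all genes, 24.4% had every KO array below every syngeneic array, and 44.7% had WT replicate 2 as the highest WT array. The share for WT replicates 1 and 3 is not given here. Bst2, which interferon also induces, and Irf8 and Spib were not below every syngeneic array on WT replicates 1 and 3. The summed signal of the list was 2884 to 4031 in KO cells, 2051 to 4761 in WT cells and 3719 to 4244 in syngeneic cells. B cell markers took the order of Cox6a2, with sums of 390 and 378 on WT replicates 1 and 3. They summed to 556 to 699 in KO cells, 911 to 1022 in syngeneic cells and 1537 on WT replicate 2. NK cell markers did too, at 60.5 and 65.5, 110 to 276, 390 to 424 and 1051 in turn. Erythroid sums were also lower on WT replicates 1 and 3 and on the KO arrays than on WT replicate 2 and the syngeneic arrays. So the pattern was not particular to the list. The part of any of these cells in the Cox6a2 signal was not tested.

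**Figure D5:**
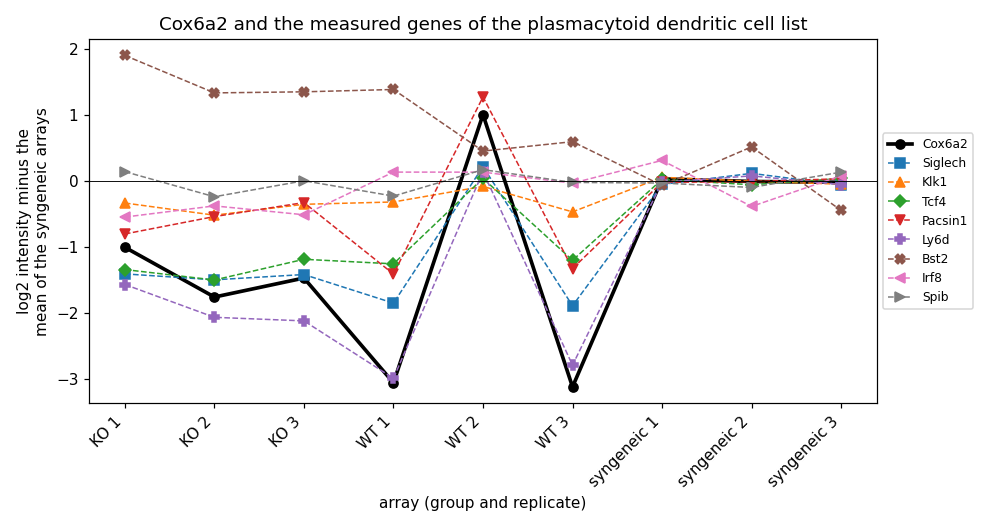
Log2 intensity minus the mean of the syngeneic arrays on each of the 9 arrays for Cox6a2 (thick black line) and the 8 measured genes of the plasmacytoid dendritic cell list (dashed lines). Cox6a2, Siglech, Ly6d, Pacsin1 and Tcf4 are low on WT replicates 1 and 3 and at or above 0 on WT replicate 2, while Bst2, Irf8 and Spib are not.

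KO replicate 1 stood above the other KO arrays in most members. It was the highest KO array for 64 of the 76 tested members (84.2%), against 37.0% of all genes, and lay a median of 0.27 above the mean of KO replicates 2 and 3, against -0.01 over all genes (log2). For complex I subunits this median was 0.47, with 27 of 31 highest, and for complex V it was 0.21, with 13 of 15. Among complex III members it was 0.09, with 4 of 7 highest. The gap was widest for Ndufaf8 at 1.07, Ndufa3 at 1.02, Ndufa5 at 0.78 and Ndufb7 at 0.76. Ndufa3, a small accessory subunit, had 16709, 8886 and 7592 on the KO arrays, 17537, 16179.7 and 17502 on the WT arrays and 15545, 15545 and 14893 on the syngeneic arrays, so that KO replicate 1 sat with the WT arrays. The difference of -0.71 ± 0.25 between KO and WT did not pass with all arrays (adjusted p = 0.185), and Ndufa3 fell by 1.05 ± 0.10 without KO replicate 1 (adjusted p = 0.0086).

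On KO replicate 1 the primary granule markers summed to 119960.1, against 100737 and 96009 on KO replicates 2 and 3. Erythroid markers summed to 8963, against 2699 and 1117, and T cell markers to 10929.9, against 14029 and 18504. Mature neutrophil markers were at 180579.6, against 180869.9 and 180878. The 58 cytosolic ribosomal protein genes on the array, a list added after the data were seen, summed to 858909.8, against 829093 and 833861. They summed to 874042 to 941631 in WT cells and 828079 to 834899 in syngeneic cells. Over the 52 tested, the median difference was -0.15 in KO vs WT and 0.15 in WT vs syngeneic. Against the syngeneic mean, their median was 0.15, -0.02 and -0.04 on KO replicates 1, 2 and 3. These shifts had the direction of those of the members and were smaller. The part of the marked cell types in the members' level on this array was not tested.

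Of the 11 members not tested, Atp5md, Cox7b, Cox7b2, Cox8b, Cox8c, Ndufaf6, Ndufb2, Ndufb4, Ndufs1, Sdha and Sdhd, no probe was above the limit on 3 arrays. Sdha, the flavoprotein of complex II, and Ndufs1, the largest core subunit of complex I, belong to every working complex, and their probes, not above the limit, say nothing of their level here. Sdhd, the other membrane anchor of complex II, had 19.1, 8.05 and 10.2 on the KO arrays, 21.2, 9.72 and 9.74 on the WT arrays and 11.99, 11.03 and 9.02 on the syngeneic arrays, above the limit on KO replicate 1 and WT replicate 1 alone. Uqcrfs1, the Rieske iron-sulphur protein of complex III, was tested but dim, with 17.1, 16.7 and 30.6 on the KO arrays, 23.5, 8.10 and 16.6 on the WT arrays and 18.4, 4.98 and 20.01 on the syngeneic arrays. For the 24 genes with several probes above background, the brightest stood for the gene. Of the 30 other probes, the sign was opposite for 6 in KO vs WT, for 1 in WT vs syngeneic and for 16 in KO vs syngeneic. Only 1, 3 and 2 of these probes belonged to members called in the same comparison, and 0 of those were opposite.

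The subunits encoded by mitochondrial DNA, listed after the data were seen, had 8 genes on the array and 6 above the limit, and 0 were called in any comparison by limma. At an unadjusted p under 0.05 there were 0 in KO vs WT, and 1, the complex I subunit ND5, in WT vs syngeneic and in KO vs syngeneic, higher in WT and KO cells. CYTB, of complex III, had 19449, 19819 and 19773 on the KO arrays, 19661, 17207 and 18923 on the WT arrays and 20281, 19661 and 18668 on the syngeneic arrays. ND4, of complex I, had 16222, 17305 and 17989.9 on the KO arrays, 15545, 14094 and 16426 on the WT arrays and 15839.8, 18979.9 and 18182 on the syngeneic arrays. Both overlapped between all 3 groups. The median over the 6 was 0.14 in KO vs WT, -0.12 in WT vs syngeneic and 0.05 in KO vs syngeneic, the first 2 opposite in sign to the nuclear members. Without WT replicate 2 these medians were 0.05, 0.05 and 0.05, and ND5 then rose in both comparisons with syngeneic cells (adjusted p = 0.0243 and 0.00542).

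Related gene lists are set beside all genes tested, of which 1.18% rose and 0.828% fell in KO vs WT, 4.8% and 5.64% in WT vs syngeneic and 5.09% and 6.85% in KO vs syngeneic. These shares were 10.2% and 9.78%, 14.6% and 14.9%, and 19.3% and 20.0% without WT replicate 2. Among 32 tested assembly factors outside the Ndufaf family, 0 changed in KO vs WT by limma (7 at an unadjusted p under 0.05, median -0.10) and 4 rose in WT vs syngeneic (median 0.28). These were Cox10, which makes the haem of complex IV, Coa5, Tmem70, an ATP synthase assembly factor, and Ecsit, of complex I assembly. Cox10 had 2725, 3925 and 2809 in WT cells against 1990.1, 2004 and 1913 in syngeneic cells and rose by 0.64 ± 0.13 (adjusted p = 0.0206). In KO vs syngeneic 2 rose (Coa5 and Ttc19). With KO replicate 1 left out, the calls of Coa5 and Tmem70 in WT vs syngeneic (adjusted p = 0.0584 and 0.0597) and of Coa5 and Ttc19 in KO vs syngeneic (adjusted p = 0.072 and 0.0709) were lost. Over the whole list, 0 rose and 2 fell in KO vs WT, 3 rose and 0 fell in WT vs syngeneic and 1 rose and 1 fell in KO vs syngeneic without KO replicate 1. With WT replicate 2 left out, 1 rose and 4 fell in KO vs WT, 10 rose and 0 fell in WT vs syngeneic and 10 rose and 1 fell in KO vs syngeneic. Without both arrays, 3 rose and 11 fell in KO vs WT, 14 rose and 0 fell in WT vs syngeneic and 10 rose and 6 fell in KO vs syngeneic.

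Of 16 other genes of electron transfer, 0 changed in KO vs WT (6 at an unadjusted p under 0.05), and Cyc1, Coq6 and Coq7 rose in WT vs syngeneic. Cyc1, the haem-bearing cytochrome c1 of complex III, had 5729.99, 5416 and 5615 on the KO arrays, 6096, 5722 and 6158 on the WT arrays and 4203, 4227 and 4165 on the syngeneic arrays. WT and KO arrays lay above all syngeneic arrays, and Cyc1 rose by 0.51 ± 0.07 in WT vs syngeneic (adjusted p = 0.003) and by 0.41 ± 0.07 in KO vs syngeneic (adjusted p = 0.00752). Coq3, of coenzyme Q synthesis, also rose in KO vs syngeneic (adjusted p = 0.0295, and 0.0808 without KO replicate 1), and Higd2a, a factor of complex IV assembly, fell by 0.60 ± 0.12 on the log2 scale (adjusted p = 0.0172). Leaving out WT replicate 2, 2 of the 16 rose and 2 fell in KO vs WT, 6 rose and 0 fell in WT vs syngeneic and 5 rose and 1 fell in KO vs syngeneic. Leaving out KO replicate 1, 0 rose and 1 fell, 3 rose and 0 fell, and 1 rose and 1 fell in the same comparisons. Leaving out both, 2 rose and 3 fell, 6 rose and 0 fell, and 5 rose and 1 fell.

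The mitochondrial ribosome, which makes the subunits encoded by mitochondrial DNA, had 72 tested genes, of which 22 rose and 0 fell in WT vs syngeneic, where 4.8% of all genes rose. The median was 0.41, and 52 were higher and 0 lower at an unadjusted p under 0.05. Mrpl4 had 1589, 1610.4 and 1486 on the KO arrays, 2253, 2086 and 2080.4 on the WT arrays and 1430.3, 1378 and 1312 on the syngeneic arrays. It rose by 0.62 ± 0.08 in WT vs syngeneic (adjusted p = 0.00176) and fell by 0.44 ± 0.08 in KO vs WT on the log2 scale (adjusted p = 0.032). Mrpl4 and Mrpl28 were the 2 genes of this list that fell in KO vs WT, where 0 rose (28 lower and 0 higher at an unadjusted p under 0.05), and the median was -0.23. In KO vs syngeneic 6 rose and 1 fell. These counts turned on single arrays. Without KO replicate 1, 0 rose and 11 fell in KO vs WT, 22 rose and 0 fell in WT vs syngeneic, and 1 rose and 2 fell in KO vs syngeneic. The counts were 3 and 10 in KO vs WT, 37 and 0 in WT vs syngeneic, and 28 and 3 in KO vs syngeneic without WT replicate 2. Without both, 4 rose and 27 fell in KO vs WT, 50 rose and 0 fell in WT vs syngeneic, and 24 rose and 6 fell in KO vs syngeneic.

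Of 15 tested genes of the tricarboxylic acid cycle and pyruvate entry, 0 changed in KO vs WT (3 at an unadjusted p under 0.05) and 1 rose in WT vs syngeneic, Idh3b, a subunit of isocitrate dehydrogenase, by 0.45 ± 0.12 (adjusted p = 0.0486). In KO vs syngeneic 0 changed by limma (4 at an unadjusted p under 0.05). With WT replicate 2 left out, 1 of the 15 rose and 0 fell in KO vs WT, 5 rose and 0 fell in WT vs syngeneic, and 6 rose and 1 fell in KO vs syngeneic. With KO replicate 1 left out, the counts in these comparisons were those with all arrays. With both left out, 2 rose and 1 fell in KO vs WT, 6 rose and 0 fell in WT vs syngeneic, and 7 rose and 0 fell in KO vs syngeneic.

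Of 22 regulators of mitochondrial biogenesis, 0 changed in KO vs WT (3 at an unadjusted p under 0.05). Gabpb1, a subunit of the ETS factor GABP, had 215, 230.4 and 266 on the KO arrays, 219.9, 231 and 211 on the WT arrays and 128, 134 and 132 on the syngeneic arrays. It rose by 0.54 ± 0.08 in WT vs syngeneic (adjusted p = 0.00556) and by 0.61 ± 0.08 in KO vs syngeneic (adjusted p = 0.00256). Myc, a growth regulator, rose in WT vs syngeneic by 1.06 ± 0.27 (adjusted p = 0.0459), with 133, 334 and 111 in WT cells against 45.003, 55.9 and 47.2 in syngeneic cells. WT replicate 2 lay far above the other WT arrays, and without it the difference was 0.70 ± 0.11 (adjusted p = 3.97e-04). Pparg, a nuclear receptor of lipid metabolism that macrophages also carry, had 422, 483 and 501 on the KO arrays, 319, 92.5 and 281 on the WT arrays and 1577, 1642 and 1714 on the syngeneic arrays. It fell by 2.62 ± 0.29 in WT vs syngeneic on the log2 scale (adjusted p = 9.81e-04) and fell by 1.68 ± 0.29 in KO vs syngeneic (adjusted p = 0.0081), beside the fall of the macrophage markers given above, whose part was not tested. Polg, the polymerase of mitochondrial DNA, fell by 0.31 ± 0.08 on the log2 scale in KO vs syngeneic (adjusted p = 0.0403, and 0.0808 without KO replicate 1). In all, 2 regulators rose and 1 fell in WT vs syngeneic and 1 rose and 2 fell in KO vs syngeneic. Once WT replicate 2 was left out, 3 rose and 1 fell in KO vs WT, 2 rose and 2 fell in WT vs syngeneic and 6 rose and 3 fell in KO vs syngeneic. Once KO replicate 1 was left out, the counts differed from those with all arrays only in KO vs WT, where 0 rose and 1 fell. Without both, 3 rose and 3 fell in KO vs WT, 4 rose and 2 fell in WT vs syngeneic and 6 rose and 4 fell in KO vs syngeneic.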

How the data were processed

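RNA of 9 samples of Gr-1+ cells (3 groups of 3) was measured on Illumina mouse arrays. For each array the deposited file lists 45281 probes with their signal intensity and detection p-value. GenomeStudio was used, per the submitters' processing notes, in a version not given in the sources used. The deposited intensity values had the same quantiles on every array (upper quartile 102.1, highest 47219), so the authors had normalized them before deposit, and 35.6% of them were at or below 0. The log2 values that the authors deposited as a matrix equal the log2 of these intensities within 1.1e-06. The deposited detection p-values tracked the signals incompletely and entered 1 alternative filter alone.

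Intensities were corrected with normexp (offset 50), quantile-normalized and fitted on the log2 scale by group over all 9 arrays (limma 3.58.1, R 4.3.3). The brightest probe above the limit on at least 3 arrays stood for each of 10872 genes. A probe name was taken from the platform annotation, with 34885 probes of 1 symbol, 18 of several and 10378 unnamed here, and all 87 members matched the RefSeq table. Adjusted p-values are Benjamini-Hochberg, with a threshold of 0.05. The number of arrays limits the precision. The script was tested on simulated data. Named members were the called ones, the 2 smallest p and the brightest probe per complex, the Sdh genes, Cycs, Atp5o and isoform pairs. In the lists of other genes, up to 4 with the smallest p were named. Gene lists, members and this rule were chosen with earlier results of these data known. Any other gene named was chosen after its values were seen. The labels give replicate numbers to all groups, but deviations of arrays with the same number correlated between -0.17 and 0.11, so the numbers were not taken as pairs.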

Additional observations from a re-analysis of the deposited data

How the results depend on the processing

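The median difference of the members kept its side of 0, or moved within the spread between arrays, in 22 of 22 alternative settings in each comparison. When 1 array at a time was left out it ranged from -0.33 to -0.22 in KO vs WT, from 0.22 to 0.26 in WT vs syngeneic and from -0.09 to 0.05 in KO vs syngeneic. Counts of called members moved far more. Shares of all genes called are given above only for all arrays and without WT replicate 2, KO replicate 1 or both. For the other settings they are not given, so the counts there cannot be read as particular to the members. In KO vs WT, 3 members were called. The count was 0 by limma without background correction (31 at an unadjusted p under 0.05), with the series matrix values (31) and with only the 6 arrays compared (22). It was 45 with array weights, 52 without WT replicate 2 and KO replicate 1 together, and 0 to 25 when 1 array was left out. In WT vs syngeneic, 7 were called. The count was 11 of 106 with all passing probes on their own, 42 with array weights, 46 without both arrays and 2 to 20 when 1 array was left out. In KO vs syngeneic, 6 were called. The count was 2 without background correction and with the series matrix values, 32 with array weights, 19 with only the 6 arrays compared, 39 without both arrays and 0 to 21 when 1 array was left out. It was 0 without each of the 3 syngeneic arrays in turn, with 14 to 16 at an unadjusted p under 0.05. With the replicate number as a block, 0 members were called in KO vs WT (39 at an unadjusted p under 0.05), 5 in WT vs syngeneic and 2 in KO vs syngeneic. Fewer arrays leave fewer degrees of freedom, and array weights gave WT replicate 2 a weight of 0.0415, but otherwise the cause of these shifts was not tested. Of 334 values of single called members under the alternatives, 220 kept their call and 114 kept their direction without passing. Chip as a random block was not run, since its correlation could not be estimated. Dim probes are limited by the background, with 72 of 76 tested members above the limit on all 9 arrays.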
